A study of Homo sapiens with 6 samples.

Results

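The genes described here set the pace of G1, the phase before DNA replication: the D-type cyclins CCND1, CCND2 and CCND3, their kinases CDK4 and CDK6, the E-type cyclins CCNE1 and CCNE2, and the CDK inhibitors CDKN1A (p21), CDKN1B (p27) and CDKN2C (p18). They were taken as the rows whose symbol in the deposited table is exactly one of these names, which gave 10 of 31628 genes. The study measured poly(A)-selected RNA in HCT116, a human colon cancer line, in clones made by drug selection that carry ENL fused to an auxin-inducible degron and express the plant F-box protein AtAFB2. ENL is a reader of acetylated histones, and auxin bound to such a degron leads the tagged protein to the proteasome. All 3 groups carry the degron and AtAFB2: untreated control cells, cells given the auxin IAA (indole-3-acetic acid) for 3 h (500 um, as the labels write it), and washout cells, which were rinsed with PBS after the same IAA and then grown without it for 48 h. Each group has 2 libraries, and nothing says whether the replicates were separate cultures or clones, so p-values measure only the spread between these libraries, which may be technical. The samples used here hold no IAA-treated cells without the degron, so effects of IAA itself and of losing ENL cannot be told apart. They also hold no cells that were rinsed and grown for 48 h without IAA before. In the washout cells, removal of IAA, the rinse and the 48 h of growth cannot be told apart either.

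In a dividing cell, mitogens raise D-type cyclins, which activate CDK4 and CDK6, and these kinases phosphorylate the retinoblastoma protein RB1 and so release E2F transcription factors. E2F factors induce the E-type cyclins, which activate CDK2 and start S phase. The INK4 inhibitors such as CDKN2C bind CDK4 and CDK6 alone, whereas CDKN1A and CDKN1B bind cyclin-CDK complexes and block CDK2. CCND1 is a mitogen-responsive oncogene that is often high in colon cancer.

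The promoter sequences of the kinases and of CDKN1A are shown, 3 of the genes called in at least 1 comparison below. They are the 250 bases before the annotated start, on the gene's strand, from RefSeq on GRCh38.p14. Windows of members on 1 chromosome were left out, and 7 of the 10 genes had a window. The motifs were searched on both strands. CACGTG is the E-box and GCGTG the core bound by the aryl hydrocarbon receptor. The E2F motif was written as TTTNNCGC. The TATA box was searched as TATAAA. For AP-1 the letters were TGANTCA. Capitals mark the matches.
CDK4 (chr12:57752311-57752560, minus strand): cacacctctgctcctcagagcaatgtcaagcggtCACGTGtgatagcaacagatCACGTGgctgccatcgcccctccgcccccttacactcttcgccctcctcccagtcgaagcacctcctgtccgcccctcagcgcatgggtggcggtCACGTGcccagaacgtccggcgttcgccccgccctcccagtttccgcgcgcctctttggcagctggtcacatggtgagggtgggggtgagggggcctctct
CDKN1A (chr6:36678464-36678713, plus strand): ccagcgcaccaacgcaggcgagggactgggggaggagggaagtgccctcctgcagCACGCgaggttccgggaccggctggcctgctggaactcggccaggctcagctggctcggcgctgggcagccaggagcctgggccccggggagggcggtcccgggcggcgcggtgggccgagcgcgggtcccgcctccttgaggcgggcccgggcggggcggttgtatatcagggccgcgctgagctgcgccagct
CDK6 upstream start (chr7:92836574-92836823, minus strand): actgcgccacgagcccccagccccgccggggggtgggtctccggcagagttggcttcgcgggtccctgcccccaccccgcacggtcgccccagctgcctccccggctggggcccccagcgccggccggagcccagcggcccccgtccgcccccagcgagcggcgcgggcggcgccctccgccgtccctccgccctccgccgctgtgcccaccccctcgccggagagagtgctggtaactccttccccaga
CDK6 downstream start (chr7:92833960-92834209, minus strand): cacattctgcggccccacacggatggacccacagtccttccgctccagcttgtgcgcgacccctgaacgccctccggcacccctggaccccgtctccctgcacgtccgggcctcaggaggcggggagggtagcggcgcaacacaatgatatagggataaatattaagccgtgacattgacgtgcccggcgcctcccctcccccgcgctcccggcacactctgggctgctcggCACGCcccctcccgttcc
The CDK4 window holds 3 matches to CACGTG, at 216, 196 and 101 bases before the start, and none to the other motifs. Of 35116 windows of this length 6.34% hold at least 1 CACGTG and 0.0797% hold 3 or more. CDKN1A has 1 match to GCGTG, on the opposite strand as CACGC 195 bases before the start, and CDK6 has 1, also as CACGC, 18 bases before its downstream start. That motif is in 32.2% of all windows. The windows of both CDK6 starts are 80.0% and 67.6% G and C, beside a median of 58.0% over all windows, and hold no CACGTG. The shares over all windows for TTTNNCGC, TATAAA and TGANTCA are 5.92%, 10.7% and 6.57%, and no window of these 3 genes holds them. CCNE1, also called below, has a window that is not printed, with 81.2% G and C and no match to any motif searched. CCND1, also called, had no window. A match describes the letters and says nothing of binding.

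Values are FPKM, fragments scaled by gene length and by library depth, in which the length proved to be the whole gene span with introns. Long genes therefore have low FPKM at many reads. The numbers of reads were recovered from the steps of the values, and library totals ran from 16443000 to 16771000 reads. CDK6, with a span of 231674 bases, had a mean FPKM of 0.536 and yet 1719 to 2493 reads per library, whereas CDKN2C, of similar FPKM (0.443) but with a span of 13889 bases, had only 92 to 118. A change is called at a Benjamini-Hochberg adjusted p under 0.05 over all genes of a fit. The 6 members whose mean FPKM reached 1 were tested with limma on log2(FPKM + 1), among 8317 genes. CCND3, CDK6 and CDKN2C, below 1, were tested with limma on log2(FPKM + 0.01), among 16179 genes, and all 9 were also tested on the recovered reads with limma's voom, among 14810 genes. CCND2 was tested in none. FPKM means carry the SD (n = 2), and log2 changes the SE.

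The libraries carried the markers of their label. All 5 epithelial markers listed (EPCAM, KRT8, KRT18, KRT19 and CDH1) were measured, the lowest at a mean FPKM of 1.64. Their summed FPKM was 334 to 344 in control, 265 to 269 with IAA and 321 to 337 after washout, and 3 of the 5, the keratins KRT8, KRT18 and KRT19, fell with IAA and rose after washout (limma on log2(FPKM + 1), adjusted p = 0.0228, 0.0221 and 0.0137 for the fall). Their part in the results for the G1 genes was not tested. Of the fibroblast, endothelial and blood markers the highest was COL1A1 at a mean FPKM of 0.642, and CD3E was at 0. MLLT1, which encodes ENL, had 0.412 and 0.427 FPKM in control and 0.404 and 0.358 with IAA. The degron acts on the protein, which these data do not measure.

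**Figure D1:**
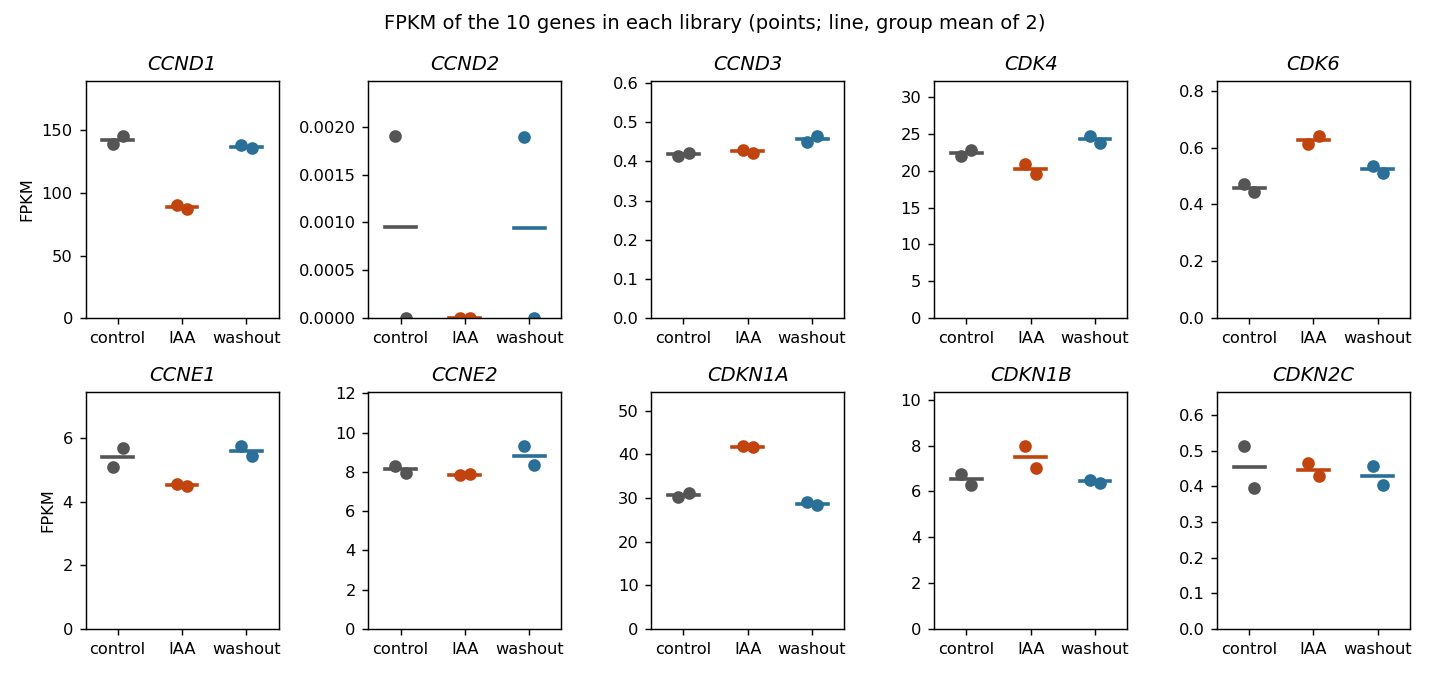
FPKM (y axis, from 0, a different scale in each panel) of the 10 genes in control, IAA and washout libraries; points are libraries and lines are means of 2. CCND1 is lower with IAA (90.2 and 87.2) than in the other 4 libraries (135 to 145), and CDKN1A and CDK6 are higher.

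CCND1 (ENSG00000110092.3), the cyclin that links growth signals to CDK4 and CDK6, was the most abundant of these transcripts and the one that changed most. Its FPKM was 139 and 145 in control cells, 90.2 and 87.2 under IAA, and 138 and 135 after washout. Both IAA libraries lay below all other libraries, and the washout libraries lay just below the control ones. With IAA it fell from 142 ± 4.42 to 88.7 ± 2.11 FPKM, to 0.623 of control (limma on log2(FPKM + 1), log2 change -0.68, SE 0.041, adjusted p = 0.00402). After washout it rose 1.54-fold to 137 ± 1.68 FPKM (limma, log2 change 0.62, SE 0.041, adjusted p = 0.00517), so that 89.3% of the difference in means was undone. Washout and control did not differ by the test (limma, log2 change -0.06, 95% interval -0.16 to 0.05, adjusted p = 0.677). The fall with IAA passed without each of the 6 libraries, whereas the rise missed the threshold without IAA replicate 2 (adjusted p = 0.0509) or washout replicate 1 (0.0522), fits in which the lone library of a group is assumed to vary like the others.

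The fall of CCND1 was shared by the gene beside it. ORAOV1 (LTO1 in GENCODE 29), which serves ribosome biogenesis and lies next to CCND1 on the opposite strand, shares 497 exon bases with it. Its FPKM was 14.0 and 13.8 in control cells, 9.24 and 9.03 under IAA, and 13.1 and 13.3 after washout. It fell to 0.658 of control with IAA (limma, log2 change -0.55, SE 0.036, adjusted p = 0.0049) and rose 1.45-fold after washout (limma, adjusted p = 0.00639). The sources used here do not name the strand that was counted, so reads in the shared bases cannot be assigned to either gene. ORAOV1 is named for this overlap and is not a G1 gene.

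CCND3 (ENSG00000112576.8), the D-type cyclin best known from blood cells, had low and nearly even values. They were 0.414 and 0.421 FPKM in control cells, 0.429 and 0.422 under IAA, and 0.449 and 0.465 after washout, which stand for 794 to 894 reads. The groups did not overlap, but they lay close together. The log2 change with IAA was 0.03 (limma on log2(FPKM + 0.01), 95% interval -0.13 to 0.18, adjusted p = 0.829), and that of washout against control was 0.13 (interval -0.03 to 0.28, adjusted p = 0.644). The interval with IAA does not reach the fall of CCND1.

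CCND2 (ENSG00000118971.3), the third D-type cyclin, was all but absent. It had 1 read in control replicate 1, 1 in washout replicate 1 and 0 in the other 4 libraries. A count of 0 allows up to 3 reads, or 0.0255 on the per-length scale used below for levels, by counting error only. Compared per kilobase of exon, CCND1 made up 97.9% ± 0.0403 of the 3 D-type cyclins in control, 96.7% ± 0.0346 with IAA and 97.7% ± 0.0829 after washout. CCND1 thus stood 47.5 ± 0.911 times above CCND3 in control and 29.1 ± 0.312 times above it with IAA. No test was run on these shares and ratios.

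CDK4 and CDK6, the kinases that D-type cyclins activate, lay on opposite sides of 0. CDK4 (ENSG00000135446.12) had 21.96 and 22.8 FPKM in control cells, 20.9 and 19.6 under IAA, and 24.7 and 23.8 after washout. The IAA libraries were lowest and the washout libraries highest, with no overlap. With IAA it stood at 0.904 of control without passing (limma on log2(FPKM + 1), log2 change -0.14, SE 0.051, adjusted p = 0.146), and it passed on the recovered reads (voom log2 change -0.15, SE 0.05, adjusted p = 0.0278). After washout it rose 1.2-fold over IAA (limma, log2 change 0.25, SE 0.051, adjusted p = 0.0418, and voom adjusted p = 0.000102). That call was lost without each of the 6 libraries on FPKM (adjusted p 0.0812 to 0.153). CDK4 shares 1369 exon bases with TSPAN31 on the opposite strand, and reads there cannot be assigned to either gene. TSPAN31 stood at 0.945 of control with IAA (limma adjusted p = 0.347). After washout TSPAN31 stood 1.14-fold above IAA without overlap (5.47 and 5.76 FPKM under IAA, 6.22 and 6.59 after washout). That rise was called on recovered reads and not on FPKM.

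CDK6 (ENSG00000105810.5) rose. Its FPKM was 0.472 and 0.443 in control cells, 0.614 and 0.642 under IAA, and 0.534 and 0.512 after washout, or 1815 and 1719, 2338 and 2493, and 2067 and 1976 reads. The 3 groups did not overlap, and washout lay between the other groups. With IAA CDK6 stood 1.37-fold above control (limma on log2(FPKM + 0.01), log2 change 0.45, SE 0.064, adjusted p = 0.0342, and voom log2 change 0.46, SE 0.055, adjusted p = 7.71e-08). On FPKM the call was lost without each of the 6 libraries (adjusted p 0.0904 to 0.145) and with FPKM rescaled to TPM (0.0539), and it held with limma's prior trend set by recovered reads (0.0014). After washout it was at 0.833 of the level with IAA, which did not pass on FPKM (log2 change -0.26, limma adjusted p = 0.0927) and did with the prior trend by recovered reads (limma adjusted p = 0.0136) and on the reads themselves (voom adjusted p = 0.000338). By means 61.3% of the rise was undone, and washout remained 1.14-fold above control without passing (limma, 95% interval of the log2 change 0.02 to 0.36, adjusted p = 0.576, and voom adjusted p = 0.13).

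Compared per kilobase of exon, CDK4 was the more abundant kinase in all 6 libraries. It stood 6.79 ± 0.483 times above CDK6 in control, 4.47 ± 0.345 times with IAA and 6.42 ± 0.00396 times after washout. CDK6 made up 13.4% and 12.3% of the sum of both in control cells, 17.5% and 19.2% under IAA, and 13.5% in both washout libraries. The IAA libraries were the highest, with no overlap and no test of this share.

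The E-type cyclins, which activate CDK2 at the start of S phase, differed less between the groups than CCND1. CCNE1 (ENSG00000105173.9) had 5.11 and 5.69 FPKM in control cells, 4.55 and 4.52 under IAA, and 5.75 and 5.45 after washout. The IAA libraries were lowest, and control and washout overlapped. With IAA it was at 0.84 of control and did not pass (limma, log2 change -0.21, SE 0.056, adjusted p = 0.078), but passed on reads (voom log2 change -0.25, adjusted p = 0.0102). After washout it rose 1.24-fold over IAA (limma, log2 change 0.25, SE 0.056, adjusted p = 0.0489, and voom adjusted p = 0.00172). On FPKM that call was lost without each of the 6 libraries (adjusted p 0.0575 to 0.172).

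CCNE2 (ENSG00000175305.12) had 8.32 and 7.93 FPKM in control cells, 7.84 and 7.88 under IAA, and 9.30 and 8.34 after washout. The groups did not overlap, and the washout replicates differed by 10.8% of their mean, 3.82 times the counting SD. The log2 change with IAA was -0.04 (limma, 95% interval -0.20 to 0.11, adjusted p = 0.675). Washout against IAA stood at 1.12-fold (limma adjusted p = 0.167) and passed on reads (voom log2 change 0.16, adjusted p = 0.0279). Its exons share 1629 bases with INTS8 on the opposite strand, which stood at 1.03-fold with IAA and 0.969-fold after washout without passing (limma adjusted p = 0.659 and 0.589).

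Among the inhibitors, CDKN1A (ENSG00000124762.9), which holds cyclin-CDK complexes inactive, rose with IAA. Its FPKM was 30.3 and 31.1 in control cells, 41.8 and 41.6 under IAA, and 28.98 and 28.4 after washout. The IAA libraries lay above all others, and washout lay below control with no overlap. The rise was 1.36-fold (limma, log2 change 0.43, SE 0.037, adjusted p = 0.00919), and after washout CDKN1A fell to 0.688 of the level with IAA (limma, log2 change -0.52, SE 0.037, adjusted p = 0.00603). By means 118% of the rise was undone, but washout and control did not differ by the test (limma, log2 change -0.09, 95% interval -0.19 to 0, adjusted p = 0.553). The rise missed the threshold without each of the control and IAA libraries in turn (adjusted p 0.0635 to 0.0719), and the fall without IAA replicate 1 (0.0544), IAA replicate 2 (0.0528) or washout replicate 1 (0.0522).

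CDKN1B (ENSG00000111276.6), the inhibitor of resting cells, had 6.78 and 6.30 FPKM in control cells, 7.97 and 7.01 under IAA, and 6.50 and 6.38 after washout. The IAA libraries were highest but differed from each other by 12.7% of their mean. The log2 change with IAA was 0.17 (limma, 95% interval -0.01 to 0.35, adjusted p = 0.174, and voom adjusted p = 0.0745). Washout against IAA was at 0.86-fold (limma adjusted p = 0.137) and passed on reads (voom log2 change -0.21, adjusted p = 0.0438).

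CDKN2C (ENSG00000123080.6), the INK4 inhibitor in this set, had 0.511 and 0.395 FPKM in control cells, 0.464 and 0.429 under IAA, and 0.457 and 0.402 after washout. The groups overlapped in all 3 comparisons. Its log2 change with IAA was -0.01, with a 95% interval of -0.42 to 0.40 (limma on log2(FPKM + 0.01), adjusted p = 0.994). That interval is wider than those of the other 8 genes tested, and it holds changes of up to 0.40 in either direction.

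Over the 9 genes with a test, CCND1 fell and CDKN1A and CDK6 rose with IAA. In the fit for a mean FPKM of at least 1 that was 1 of 6 lower and 1 of 6 higher, where 6.49% and 6.64% of all 8317 genes were called lower and higher (13.1% in all). With FPKM rescaled to TPM these were 647 lower and 397 higher in place of 540 and 552, and CCND1 and CDKN1A remained called. In the fit for low FPKM it was 1 of 3 higher and 0 lower, where 3.97% of 16179 genes were called higher and 3.50% lower (7.47% in all; 495 higher and 656 lower as TPM, without CDK6), and 0 of the 3 had an unadjusted p under 0.05 in the lower direction. On recovered reads 3 of 9 were lower (CCND1, CCNE1 and CDK4) and 2 of 9 higher, against 10.2% and 13.7% of all genes (23.9% in all). IAA and control did not overlap in 4 genes that were higher with IAA and 4 that were lower, where 31.9% and 23.2% of 16179 genes are so placed, and CDKN2C was the exception. With so few genes these counts describe the set and show nothing particular to it. Whole cultures were measured, so fewer cells in a phase of the cycle and less RNA per cell cannot be told apart.

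For washout against IAA, CCND1, CDK4 and CCNE1 rose and CDKN1A fell, 3 and 1 of 6, where 7.73% and 6.65% of genes were called higher and lower (14.4% in all; 643 and 553 genes, or 804 and 400 as TPM). In the low fit limma called 0 of 3, where 7.68% of genes were called, 3.89% higher and 3.79% lower (775 and 462 genes as TPM), and 1 of the 3 (CDK6, lower) had an unadjusted p under 0.05. On reads 4 of 9 rose and 3 fell, against 11.4% and 13.6% of genes (25.0% in all). Washout and IAA did not overlap in 5 genes that were higher and 3 that were lower after washout, against 25.7% and 29.9% of genes. This comparison shares the IAA libraries with the first, so opposite signs in both are not separate evidence.

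Washout against control called 0 of 9 genes by limma and 0 of 9 by voom. At an unadjusted p under 0.05 limma had 0 of 6 in the first fit and 1 of 3 in the low fit, CDK6. The fit for a mean FPKM of at least 1 called 0 of all 8317 genes (490 higher and 260 lower at an unadjusted p under 0.05), the low fit called 0.130% (0.0680% higher and 0.0618% lower), and voom 0.614% (0.297% and 0.317%). Non-overlapping groups were seen for 4 genes higher and 2 lower after washout, where 21.9% and 16.6% of genes lie so.

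**Figure D2:**
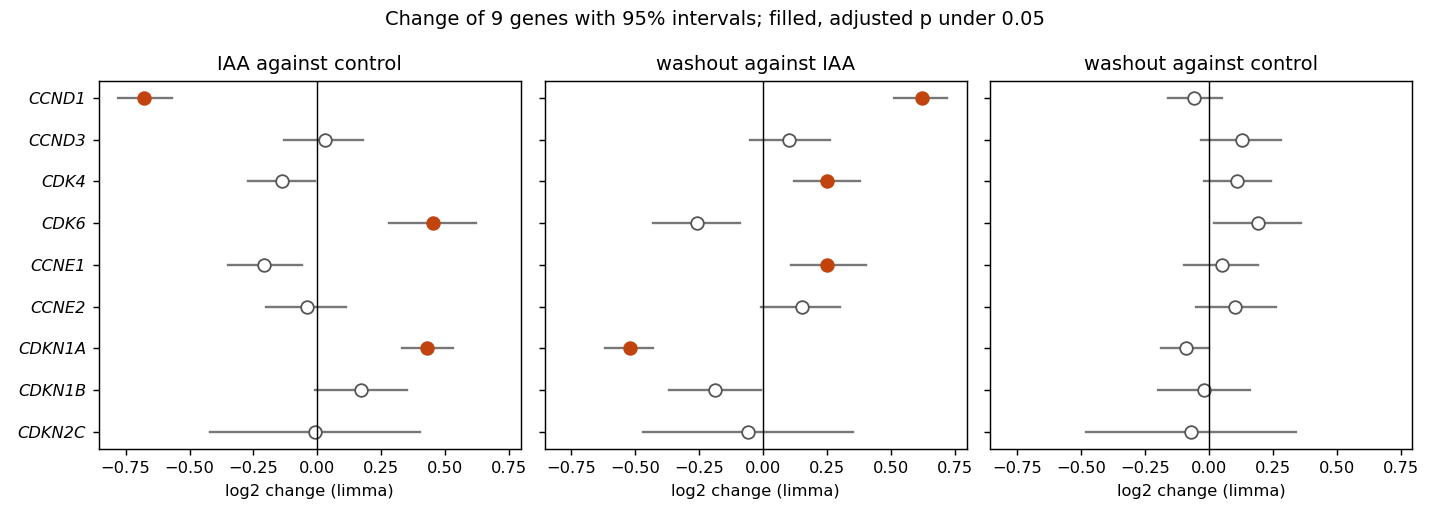
Log2 change (x axis) of the 9 tested genes in the 3 comparisons, from limma on log2(FPKM + 1) or, for CCND3, CDK6 and CDKN2C, log2(FPKM + 0.01); lines are 95% intervals and filled points have an adjusted p under 0.05. CCND1 at -0.68 and CDKN1A at 0.43 change sign between the first 2 panels, and no point is filled in the third.

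Levels can be set side by side only per length. Exon length assumes that the counted reads lie in exons, which the sources used here do not state. The cyclin shares and the ratios between genes above rest on the same assumption. In reads per kilobase of exon, scaled to library depth as FPKM is, the order in control was CCND1 (395 ± 12.3), CDKN1A (109 ± 1.88), CDK4 (58.5 ± 1.55), CCNE2 (31.2 ± 1.06), CCNE1 (26.3 ± 1.97), CDKN1B (17.0 ± 0.879), CDK6 (8.64 ± 0.388), CCND3 (8.31 ± 0.0995) and CDKN2C (1.90 ± 0.344), each SD with n = 2. CDK6 and CCND3 did not differ beyond their spread in control, with overlapping libraries (8.91 and 8.36 against 8.24 and 8.38). With IAA CDK6 moved to 11.9 ± 0.373 and CCND3 stayed at 8.46 ± 0.111, and these libraries did not overlap. The ratio of CDKN1A to CCND1 was 0.279 and 0.273 in control cells, 0.593 and 0.610 under IAA, and 0.269 and 0.268 after washout. Among the inhibitors CDKN1A stood 6.41 ± 0.445 times above CDKN1B in control and 7.62 ± 0.667 times with IAA, with SDs that are large beside that difference and no test.

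**Figure D3:**
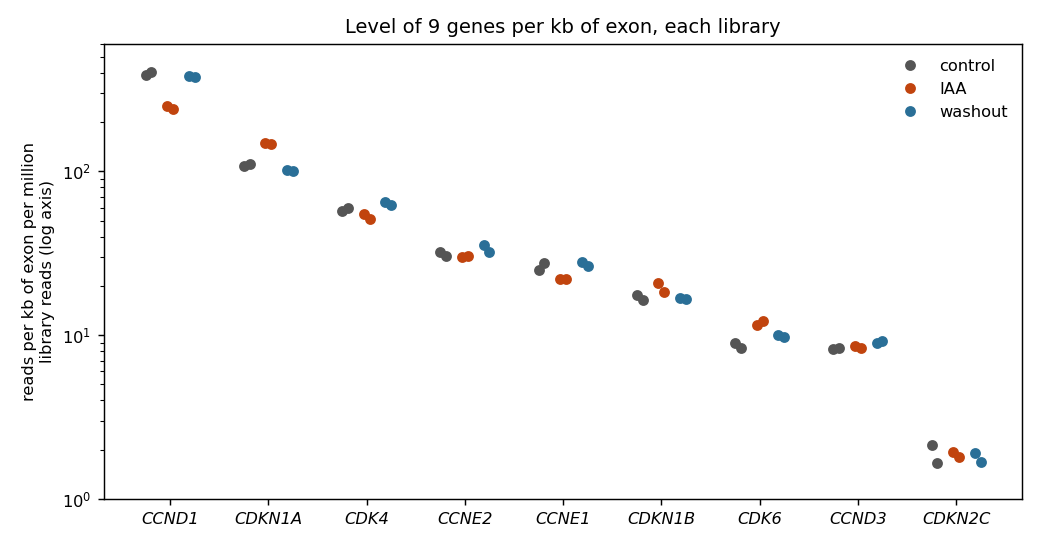
Reads per kilobase of exon, scaled to library depth (log axis), of 9 genes in each of the 6 libraries, ordered by the control mean. CCND1 lies between 242 and 403, and CDKN2C between 1.65 and 2.14, with CCND2 left out at 0 or 1 read.

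Replicates differed by no more than 2 counting SDs in 20 of the 27 pairs of libraries from these 9 genes. CCND1, with 19587 to 32644 reads, differed most, by 5.54 counting SDs between the control libraries, although that was only 4.39% of their mean. The IAA libraries differed by 0.253 counting SDs for CDKN1A, and the replicates of CCND3 by 0.34 to 0.725.

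The rest of the G1 machinery was read through 6 lists of genes. Of the RB family and E2F factors, 1 of 8 with a mean FPKM of at least 1 rose with IAA and 0 fell, where 6.64% and 6.49% of all genes in that fit rose and fell, so that 1 of 8 is near the background, with a median log2 change of -0.03 beside 0.01 over all genes. At an unadjusted p under 0.05 limma had 1 higher and 2 lower, and voom called 2 of 13 higher and 1 lower, where 13.7% and 10.2% of all genes were called. The member that rose was E2F7, a repressor of E2F targets, from 1.09 ± 0.0493 to 1.43 ± 0.106 FPKM (limma adjusted p = 0.0474). After washout E2F2, an activator, rose over IAA from 1.61 ± 0.0119 to 2.18 ± 0.0623 FPKM (limma adjusted p = 0.0152), and E2F8, another repressor, rose 1.16-fold (limma adjusted p = 0.0457). RB1, whose long span puts it at 0.313 FPKM in control, stood at 0.335 with IAA (limma on log2(FPKM + 0.01), adjusted p = 0.555).

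Of the 4 other CDK inhibitors (CDKN1C, CDKN2A, CDKN2B and CDKN2D), CDKN2D (p19), an INK4 protein, rose with IAA. It went from 3.99 ± 0.105 to 5.63 ± 0.275 FPKM, 1.41-fold (limma adjusted p = 0.0166), and fell to 4.13 ± 0.24 after washout (limma adjusted p = 0.021). The list's median log2 change with IAA was -0.04, and 1 of 4 rose and 0 fell, where 6.64% and 6.49% of all genes in that fit did. At an unadjusted p under 0.05 in limma, or by voom, 0 of 4 were lower. CDKN2D and CDKN1A rose 1.41-fold and 1.36-fold, whereas the other INK4 member tested above, CDKN2C, had an interval that covers both directions. CDKN2A and CDKN2B stood at 0.975 and 0.914 of control with IAA and were not called (limma on log2(FPKM + 1), adjusted p = 0.8184 and 0.5195).

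The transcription factors known to act on CDKN1A and CDKN1B had 1 of 5 higher and 0 lower with IAA by limma (2 higher and 1 lower at an unadjusted p under 0.05), beside 6.64% and 6.49% of all genes. Voom called 4 of 8 higher and 0 lower, beside 13.7% and 10.2%. FOXO4, a forkhead factor that induces CDKN1B, rose from 1.34 ± 0.0606 to 1.97 ± 0.109 FPKM (limma adjusted p = 0.0155) and fell to 1.22 ± 0.00918 after washout (limma adjusted p = 0.0117). The forkhead factors FOXO1 and FOXO3 were among those called on reads only, FOXO1 at 1.28-fold (limma adjusted p = 0.328, voom adjusted p = 0.0172) and FOXO3 at 1.14-fold (limma adjusted p = 0.252, voom adjusted p = 0.0468).

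Genes for the turnover of G1 cyclins and inhibitors had 1 of 7 higher and 1 lower with IAA by limma, with a median log2 change of -0.04, and 2 of 11 higher and 1 lower by voom. The shares over all genes were 6.64% and 6.49% by limma and 13.7% and 10.2% by voom. SKP1, the adaptor of SCF ubiquitin ligases, rose from 2.39 ± 0.0343 to 2.88 ± 0.0553 FPKM (limma adjusted p = 0.0288). CUL4A, the scaffold of another ubiquitin ligase, fell from 3.08 ± 0.0252 to 2.62 ± 0.0343 FPKM (limma adjusted p = 0.0352). DTL, the receptor through which CUL4 ligases target CDKN1A and CDT1, rose after washout from 1.06 ± 0.0451 to 1.38 ± 0.0298 FPKM (limma adjusted p = 0.0291). FBXW7, which directs cyclin E to degradation, and AMBRA1, which does so for D-type cyclins, were called on reads only, FBXW7 lower after washout (voom log2 change -0.34, adjusted p = 0.00161) and AMBRA1 higher with IAA (voom log2 change 0.23, adjusted p = 0.0361).

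CDK2, its activators and CDC37 had 0 of 4 called by limma with IAA (1 higher and 1 lower at an unadjusted p under 0.05). Voom called 1 of 6 in each direction. These were CCNH, a subunit of the CDK-activating kinase (voom log2 change 0.21, adjusted p = 0.00281), and CDC25A, the phosphatase that activates CDK2 (voom log2 change -0.22, adjusted p = 0.00785). Of 14 E2F targets of S phase entry limma called 0 with IAA (3 higher and 0 lower at an unadjusted p under 0.05), and voom called 3 higher, PCNA, RRM2 and CCNA2. Over all genes, limma called 6.64% higher and 6.49% lower with IAA, and voom 13.7% and 10.2%. After washout 2 of 14 rose over IAA, MCM5 from 5.82 ± 0.0613 to 7.19 ± 0.371 FPKM (limma adjusted p = 0.0333) and MCM6 1.16-fold (limma adjusted p = 0.0429), with a list median of 0.08 beside 0 over all genes. By voom 5 of 14 rose and 1 fell, CCNA2, the S phase cyclin (log2 change -0.25, adjusted p = 0.000331, limma adjusted p = 0.0506). For washout against IAA, limma called 7.73% of all genes higher and 6.65% lower, and voom 11.4% and 13.6%. Against control, limma called 0 of 14 after washout, with 8 higher and 0 lower at an unadjusted p under 0.05 (490 and 260 of all 8317 genes) and a median of 0.12 beside 0.01 over all genes. Voom called 1 higher, MCM5, at 1.18-fold of control (log2 change 0.23, adjusted p = 0.0178), where 0.297% of all genes were called higher.

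**Figure D4:**
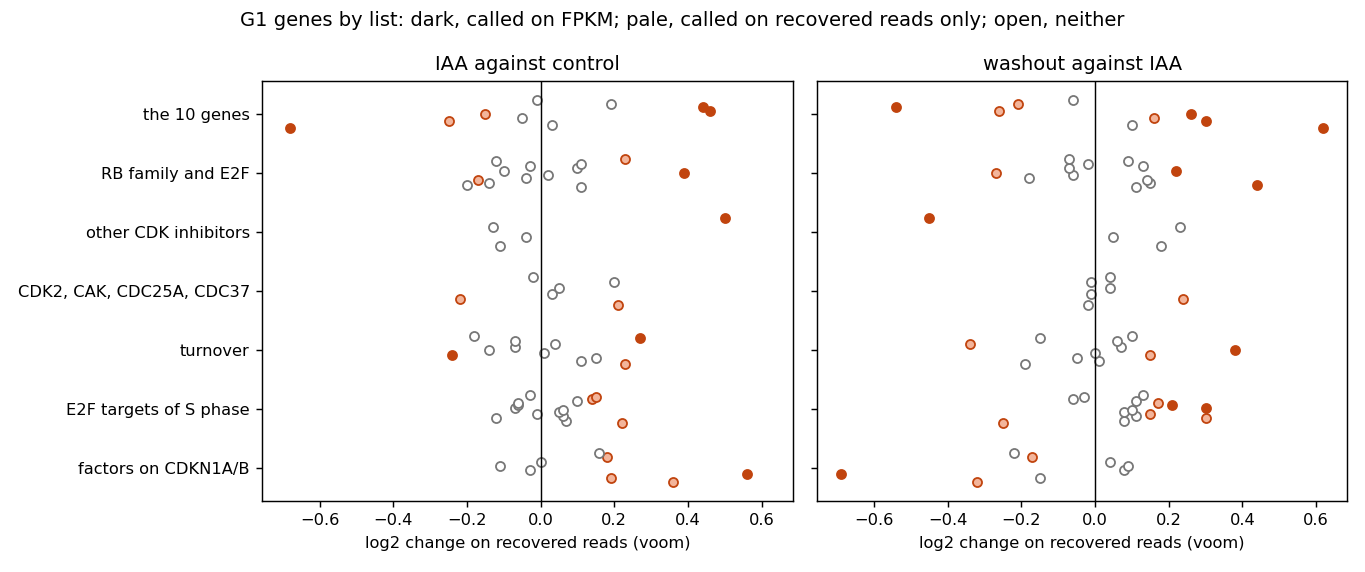
Log2 change on recovered reads (x axis, limma's voom) of the genes of each list, for IAA against control and washout against IAA; dark points were called on FPKM, pale points on recovered reads only, and open points by neither. CCND1 at -0.68 is the lowest point with IAA, and FOXO4 at 0.56 and CDKN2D at 0.50 lie beyond CDK6 at 0.46 and CDKN1A at 0.44.

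The genes whose 6 values lay closest to those of a member, by Euclidean distance between log2(FPKM + 0.01) values centred on their own mean, were as follows. For CCND1 they were ELFN2, POP1 and CXCR5, at distances of 0.085, 0.0993 and 0.101 among 8316 genes, with 0.624, 0.626 and 0.651 of control with IAA. For CDK6 they were NR4A1, IRF2BPL and MAN1A1 (0.0569, 0.0671 and 0.0679 among 16178 genes), with 1.35-fold, 1.38-fold and 1.41-fold of control with IAA and 1.16-fold, 1.12-fold and 1.13-fold after washout. For CDKN1A they were TMEM170A, TRAPPC6B and CLN8 (0.0673, 0.0745 and 0.079), at 1.3-fold, 1.36-fold and 1.32-fold with IAA. The distances are a description over 6 libraries.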

How the data were processed

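The deposited values are FPKM, which the authors computed per gene and library; the submitters' processing notes name HISAT, Bowtie2, HTSeq and edgeR and the hg19 build, while the sources used here give no versions, roles, annotation release or filters. Gene spans and exons came from GENCODE 29 (GRCh38), used for lengths and overlaps only, which held 94.3% of gene IDs. Of 5570 low genes with a span over 2 times the exon length, 82.5% gave whole reads with the span and 0.0% with the exon length, so reads were taken as FPKM × span × library total. Of 21707 genes above 0, 16866 were whole with that span (tolerance 0.02 reads), 4255 (CDKN1A among them) and 585 were set to the nearest or smallest whole solution, and 1 had none. Recovered reads summed to 103.79% to 104.1% of the totals.

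limma 3.58.1 in R 4.3.3 fitted group means to all 6 libraries with a trend in the prior variance (3 residual degrees of freedom). Its voom used genes with at least 10 mean reads. The fits were tested on simulated data for IAA against control. At 1.5-fold, log2(FPKM + 1) recovered 79% of 100 changed genes and made 6 false calls among 8317. Voom recovered 97% with 11 false calls among 14813, and log2(FPKM + 0.01) 42% with 57 among 16033. Of the false calls, 4 by voom and 0 by either fit on FPKM lay in genes of 500 reads or more. The changed genes all had a mean FPKM of at least 1, and every gene was given the same dispersion. Recovery of changes in genes below 1 was therefore not measured. The false calls of the low fit all lay in genes under 500 reads, so a limma call at low FPKM and few reads is weak. Genes were named as the 10 members, at most 4 called genes of each list by size of change, and those a small count needs. The 3 nearest patterns were named too, as were genes with deposited values whose exons overlap a member's. Overlapping genes without deposited values were left out. CDKN1A shares 146 exon bases, CDK6 81 and CCND3 24 with such a gene on the opposite strand, and CCND2 and CCNE2 also overlap such genes. Reads there cannot be assigned either. Genes called on reads only, and RB1, were named after their values were seen, and the values of CDKN2A and CDKN2B were added then too. The members and lists were chosen with earlier results of these data known. Same-numbered replicates were not taken as paired. Results for 1 gene of the lists are not reported here.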

Additional observations from a re-analysis of the deposited data

How the results depend on the processing

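The counts behind the called shares moved more than the members' directions. For IAA against control, the 1092 genes called on log2(FPKM + 1) became 3545 with voom on recovered reads, and 50 to 534 when 1 library was left out. The 1209 called at low FPKM became 2409 with the prior trend by reads, 3545 with voom and 184 to 298 without 1 library. For washout against IAA, 1196 became 3705 with voom and 46 to 421 without 1 library, and 1243 at low FPKM became 2605 by reads, 3705 with voom and 152 to 278 without 1 library. For washout against control, 0 became 48 without the filter and 91 with voom, and stayed 0 without each library. The 21 at low FPKM became 32 with a pseudocount of 0.1, 4 with a mean FPKM of at least 0.2, 0 with the trend by reads, 91 with voom and 87 to 160 without 1 library. The cause of these shifts was not tested, beyond the smaller number of libraries. Voom called CDK4 and CCNE1 with IAA, and CCNE2, CDKN1B and CDK6 after washout. The prior trend by reads was run only for the low fit, so of these genes only CDK6 was tested with it. CDK6 after washout passed there (limma adjusted p = 0.0136). CCNE1 after washout was also lost with a pseudocount of 5 (adjusted p = 0.0519), without the filter (0.101) and without the prior trend (0.05004), and CDK4 without the filter (0.0743). Scaling by median ratios and voom at low FPKM were chosen after seeing the data, and the scaling changed no call on a member. No called value changed sign. CDKN2C, with 92 to 118 reads, and CCND2 are limited by depth.

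Same-numbered replicates did not deviate together (r = 0.043, -0.027 and 0.006 over 8317 genes), so the numbers were not taken as pairs. With a replicate block the counts were 486 and 18 for IAA against control, 532 and 51 for washout against IAA, and 0 and 0 for washout against control, on log2(FPKM + 1) and at low FPKM. CDK6 with IAA (adjusted p = 0.0891), CDK4 (0.0801) and CCNE1 (0.0945) after washout were not called with the block, and the other calls on members held.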
